A study of Homo sapiens with 6 samples.

Results

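Glycolysis and the pentose phosphate pathway were examined in DU145 and 769-P cells through 34 genes named for their role in these pathways, among 24551 genes with an expression value. The list holds 2 glucose transporters, the glycolytic enzymes from hexokinase to lactate dehydrogenase, 2 lactate transporters, the enzymes and kinases at the entry to the citric acid cycle, PGM1 and FBP1 on the glycogen and gluconeogenic side, and 4 enzymes of the pentose phosphate pathway. Genes were taken by name and role, and the list was drawn up with earlier results of these data known. Of the 34 genes, 33 reached a mean of 1 FPKM over the 6 libraries and entered the comparisons. SLC2A3, a high-affinity glucose transporter, did not, with 0 to 0.145 FPKM.

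Glycolysis splits glucose into pyruvate in the cytosol and yields ATP and NADH. Pyruvate is either reduced to lactate and exported, or taken into mitochondria and oxidised by the pyruvate dehydrogenase complex. The pentose phosphate pathway branches off at glucose phosphate and supplies NADPH and ribose for nucleotides. Most steps have several isozymes encoded by separate genes that differ in regulation and tissue, and both kidney and prostate cancers are known for altered glucose use.

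DU145 is a prostate cancer line and 769-P is a line from a renal cell adenocarcinoma. Each line gave 3 libraries, a control (NC siRNA) and a knockdown with each of SPOP siRNA 1 and siRNA 2. SPOP is the substrate adaptor of a cullin ubiquitin ligase. The labels name no further allele or agent, and the time after transfection is not given for these libraries in the sources used here. Each line stands for itself only, so a difference between DU145 and 769-P is one between these 2 lines. Cell number and RNA per cell cannot be told apart in such bulk samples. SPOP itself was at 17.2% and 18.4% of the control value with siRNA 1 and siRNA 2 in DU145, and at 13.2% and 12.04% in 769-P. The kidney marker PAX8 had 106 to 125 FPKM in 769-P and 1.10 to 1.47 FPKM in DU145, whereas CA9, a marker of clear cell renal carcinoma, was listed at 0 in all 769-P libraries. Keratins KRT8 and KRT18 were at 343 FPKM or more in DU145 and at 171 or more in 769-P. The prostate markers KLK3, FOLH1 and HOXB13 were at or below 0.311 FPKM in DU145. The 4 markers of blood and endothelial cells summed to at most 1.59 FPKM in any library. The DU145 control and the 769-P siRNA 2 library stood apart, with values above 0 at 287 and 237 of 366 olfactory receptor genes, against 3 to 5 elsewhere. Counts from limma and of genes at least 2-fold apart between the lines are given with and without both libraries. Knockdown in DU145 and the difference in response cannot be computed without the DU145 control, so those results all rest on it.

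The promoters of 5 genes are shown here, since they can be set beside the transcript levels of hypoxia-inducible factor genes given further on. SLC16A3 had the largest difference between the lines on the log2(FPKM + 1) scale. ENO2 and FBP1 were at least 2-fold apart, and PFKL was the gene that rose in DU145. LDHA overlapped between the lines and was taken for its matches to the searched core. With both strands counted, its window has the most matches of the list. PDHA1, also at least 2-fold apart, has 0 matches to ACGTG in its window and is not printed. Each run is 300 bases of RefSeq sequence in GRCh38.p14, from 250 bases before to 50 after a transcription start, 5′ to 3′ on the strand of the gene. Capitals mark ACGTG, 1 form of the core bound by hypoxia-inducible factors, on either strand. The other form, GCGTG, was counted apart and is not marked. Where a gene has several windows, the window with the most matches is printed.
SLC16A3 at chr17:82228792-82229091, plus strand: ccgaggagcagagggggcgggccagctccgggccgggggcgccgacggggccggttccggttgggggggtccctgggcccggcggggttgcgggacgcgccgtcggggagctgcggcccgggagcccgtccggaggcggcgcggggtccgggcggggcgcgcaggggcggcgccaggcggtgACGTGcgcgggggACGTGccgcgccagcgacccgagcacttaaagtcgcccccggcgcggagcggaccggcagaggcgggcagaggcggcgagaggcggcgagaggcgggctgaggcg
LDHA at chr11:18394313-18394612, plus strand: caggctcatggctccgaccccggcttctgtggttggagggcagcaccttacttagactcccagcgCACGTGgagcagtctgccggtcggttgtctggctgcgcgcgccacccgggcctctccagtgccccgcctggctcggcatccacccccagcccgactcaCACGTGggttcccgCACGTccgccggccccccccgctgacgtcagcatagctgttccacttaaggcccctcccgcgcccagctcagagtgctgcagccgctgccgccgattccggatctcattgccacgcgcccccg
ENO2 at chr12:6914330-6914629, plus strand: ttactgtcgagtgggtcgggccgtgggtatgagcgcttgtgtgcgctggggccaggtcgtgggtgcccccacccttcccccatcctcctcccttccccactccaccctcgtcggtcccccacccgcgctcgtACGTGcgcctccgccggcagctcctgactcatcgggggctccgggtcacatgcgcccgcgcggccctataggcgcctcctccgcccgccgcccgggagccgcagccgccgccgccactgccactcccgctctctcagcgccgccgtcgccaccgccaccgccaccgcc
FBP1 at chr9:94639469-94639768, minus strand: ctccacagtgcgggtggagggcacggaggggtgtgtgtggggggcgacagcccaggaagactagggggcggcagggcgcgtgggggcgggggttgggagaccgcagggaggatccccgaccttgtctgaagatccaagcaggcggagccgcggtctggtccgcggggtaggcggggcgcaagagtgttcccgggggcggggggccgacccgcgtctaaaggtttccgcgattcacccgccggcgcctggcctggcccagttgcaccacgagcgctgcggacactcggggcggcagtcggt
PFKL at chr21:44299803-44300102, plus strand: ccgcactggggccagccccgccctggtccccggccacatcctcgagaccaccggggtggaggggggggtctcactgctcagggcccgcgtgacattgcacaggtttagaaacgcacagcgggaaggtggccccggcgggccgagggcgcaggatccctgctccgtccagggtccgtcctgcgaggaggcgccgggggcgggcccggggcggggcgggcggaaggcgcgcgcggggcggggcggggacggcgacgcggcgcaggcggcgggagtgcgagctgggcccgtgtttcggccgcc
The window of SLC16A3 holds 2 matches, that of ENO2 1, and those of FBP1 and PFKL 0. LDHA has 5, because the palindrome CACGTG contains the core on both strands and counts as 2. The other 4 windows of SLC16A3 have 0 matches to ACGTG. In the printed windows GCGTG had 1 match each at LDHA, FBP1 and PFKL and 0 at SLC16A3 and ENO2. It had 4 in the window of PDHA1. ACGTG was present in 22 of 59 windows of the 31 genes with a window (37.3%) and in 21.4% of all 35116 windows. The E-box CACGTG, which contains it, was in 11.9% of the windows of these genes and 7.26% of all windows, GCGTG in 44.1% and 36.5%, and TGACNNNGC, the core of the antioxidant response element, in 10.2% and 13.3%. Windows of a gene can overlap, and a match is a run of letters, not a binding site. PFKFB2, SLC16A1 and SLC2A3 had no window in the table.

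Expression was read as FPKM, which counts fragments per unit of transcript length and of library size, and so allows genes to be set side by side. The 34 genes took 2.36% to 2.64% of the summed FPKM of a DU145 library and 2.49% to 2.93% of a 769-P library. GAPDH, PKM, ALDOA and ENO1 together made up 66.5% to 71.9% of that sum in every library. GAPDH, which oxidises glyceraldehyde phosphate, was the highest gene of the list in 5 of the 6 libraries, and it ranked 3rd to 10th among all genes. It had 2855, 1975 and 2736 FPKM in the DU145 control, siRNA 1 and siRNA 2 libraries and 4576, 3538 and 3693 in the same order in 769-P. PKM, pyruvate kinase, was above it in the DU145 siRNA 1 library, with 2230.0 FPKM there, 1867 in the DU145 control and 2103 with siRNA 2. Its values in 769-P were 1894, 1816 and 1457 FPKM, which overlap with those of DU145. Below the enzymes that act after aldolase stood the regulators and minor isozymes. ALDOC, the brain-type aldolase, had 1.20 to 2.09 FPKM and PDK3, a pyruvate dehydrogenase kinase, 1.10 to 2.61 FPKM. Several of the most abundant genes, among them GAPDH, PGK1, ENO1, LDHA and PKM, have processed pseudogenes, so the way reads were shared between copies could move their values.

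**Figure D1:**
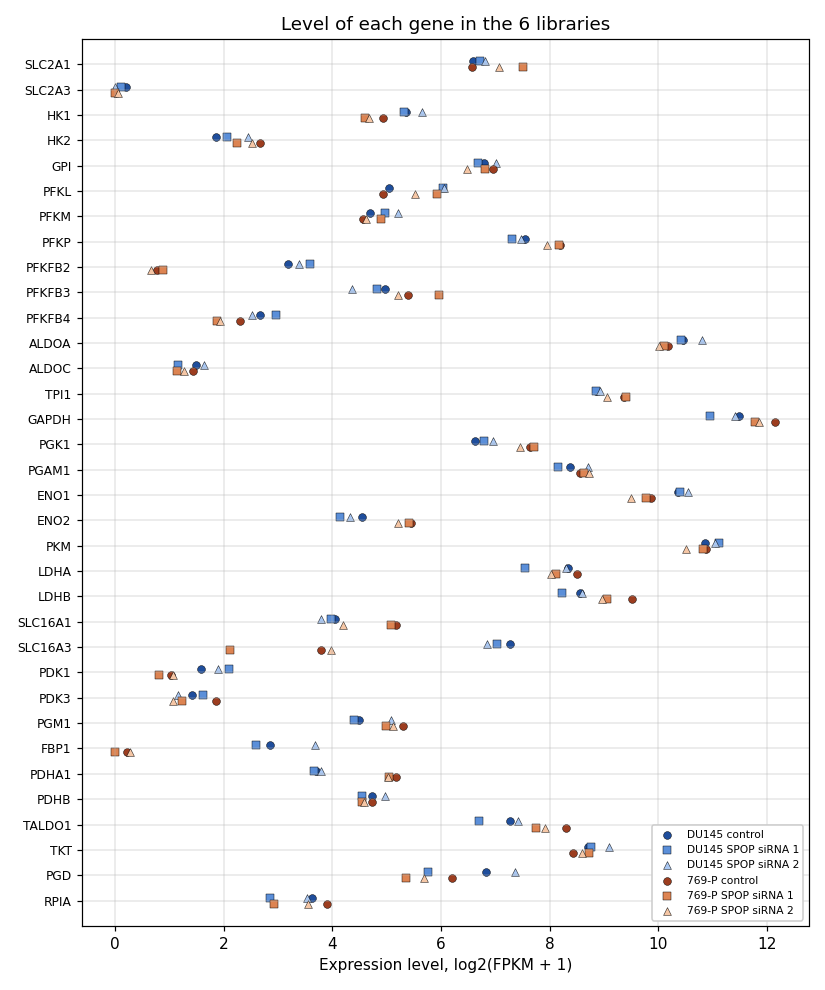
Expression of the 34 genes in the 6 libraries, as log2(FPKM + 1) on the horizontal axis and 1 gene per line, with DU145 in blue and 769-P in red and brown and with circles for control, squares for siRNA 1 and triangles for siRNA 2. GAPDH, PKM, ALDOA and ENO1 lie furthest right, SLC2A3 lies close to 0, and the lines are widely separate at PFKFB2, SLC16A3 and FBP1.

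How far knockdown of SPOP changed these enzymes was examined for each line against its single control. A gene was counted when the log2(FPKM + 1) values of both siRNA libraries lay past 1.5-fold on the same side of the control. In DU145 PFKL alone rose and no gene fell, which is 3.03% of the 33 genes, while 4.72% of all 11865 genes tested rose and 1.19% fell by that criterion (5.91% together). In 769-P PDK3 alone fell and no gene rose, against 3.60% of all genes that rose and 3.73% that fell (7.32% together). At 2-fold with both siRNAs the count was 0 in both lines, against 0.995% of all genes in DU145 and 1.22% in 769-P. These shares are no higher than those of all genes.

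PFKL, the liver-type phosphofructokinase of the committed step of glycolysis, lies on chromosome 21 of GRCh37 from 45719934 to 45747259. Its level was 31.9 FPKM in the DU145 control, 64.4 with siRNA 1 and 65.3 with siRNA 2. The 769-P libraries held 29.5, 59.6 and 44.7 FPKM in that order. Both siRNA libraries were above the control in each line, 2.02-fold and 2.04-fold in DU145 and 2.02-fold and 1.51-fold in 769-P. With the pseudocount of 1 the siRNA 2 value in 769-P was 0.58 on the log2 scale, just short of 1.5-fold, so that PFKL was not counted there. With a pseudocount of 0.1, or with fold changes centred on the median of all genes, it passed in 769-P too. The log2 fold change from limma was 0.999 (SE 0.25, adjusted p = 0.719) in DU145 and 0.79 (SE 0.25, adjusted p = 0.693) in 769-P, so it did not pass the adjusted threshold in either line. The responses of the lines were not shown to differ (adjusted p = 0.999 from limma). The muscle-type PFKM had 24.9, 30.5 and 36.1 FPKM in DU145 and 22.7, 28.8 and 23.7 in 769-P, and the platelet-type PFKP had 186, 158 and 178 FPKM in DU145. PFKP stayed the main form in every library. Its share of the summed FPKM of the 3 enzymes was 76.5% in the DU145 control, 62.5% and 63.7% with the siRNAs, and 84.8%, 76.5% and 78.4% in 769-P.

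PDK3, which phosphorylates and inhibits pyruvate dehydrogenase, lies on chromosome X of GRCh37 from 24483361 to 24568583. It had 2.61 FPKM in the 769-P control, 1.34 with siRNA 1 and 1.10 with siRNA 2, and 1.66, 2.05 and 1.23 FPKM in DU145. Both siRNA libraries were below the control in 769-P and lay on either side of it in DU145. The log2 fold change in 769-P was -0.70 (SE 0.30, adjusted p = 0.709 from limma). Its mean of under 5 FPKM means that it is not counted when that minimum is required.

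SLC2A1, the main glucose transporter GLUT1, had 94.6 FPKM in the 769-P control, 182 with siRNA 1 and 133 with siRNA 2, against 95.4, 104 and 111 FPKM in DU145. The siRNA libraries were above the control in both lines, but in 769-P only siRNA 1 passed 1.5-fold, and in DU145 neither did. The log2 fold change of SLC2A1 was 0.71 in 769-P (SE 0.25, adjusted p = 0.693 from limma). The lactate dehydrogenases, which interconvert pyruvate and lactate, were below the control with both siRNAs in 769-P, with 362, 276 and 259.5 FPKM for LDHA and 730.4, 529 and 497 FPKM for LDHB. In DU145 LDHA had 321 FPKM in the control, 187 with siRNA 1 and 314 with siRNA 2, so that only the siRNA 1 library lay far from the control there. None of these changes passed 1.5-fold with both siRNAs. Taken by single siRNAs, PFKL was past 1.5-fold higher and LDHA, PGD and RPIA lower with siRNA 1 in DU145, 12.1% of the 33 genes beside 19.5% of all genes. With siRNA 2 HK2, PFKL, PGM1 and FBP1 were past it higher and PFKFB3 lower, 15.2% beside 15.1%. In 769-P SLC2A1 and PFKL were higher and SLC16A3, PDK3, PGD and RPIA lower with siRNA 1 (18.2% beside 20.1%), and SLC16A1 and PDK3 lower with siRNA 2 (6.06% beside 14.5%).

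In limma 0 of the 33 genes had an adjusted p under 0.05 for the knockdown of either line or for the difference between these responses, against 0.135%, 0.101% and 0.169% of all genes. At an unadjusted p under 0.05 from limma, PFKL passed in DU145 (6.27% of all genes), SLC2A1 and PFKL in 769-P (6.97%), and 0 genes of the list for the difference (2.74%). The median log2 fold change over the 33 genes was -0.08 with siRNA 1 and 0.20 with siRNA 2 in DU145, beside 0.07 and 0.12 over all genes tested. In 769-P it was -0.14 and -0.19, beside 0.00 and -0.06. Of the 33 genes, 21 lay below the control with both siRNAs in 769-P and 5 above, against 39.5% and 31.5% of all genes. In DU145 8 lay below and 10 above, against 22.2% and 43.5%. The median of all genes after siRNA 2 in DU145 was itself shifted by 0.12, and the 2 fold changes of a line share a control library.

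**Figure D2:**
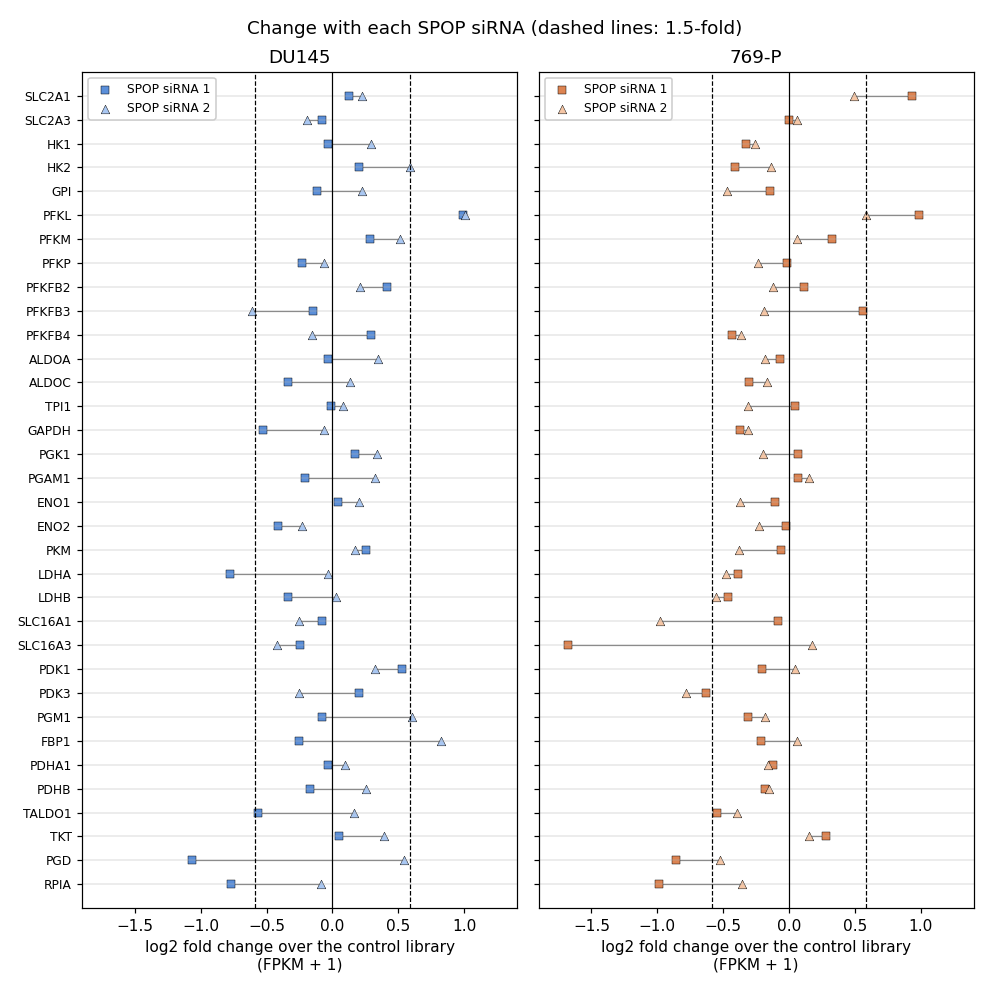
log2 fold change of each gene over the control library of its line, on log2(FPKM + 1), with squares for SPOP siRNA 1, triangles for siRNA 2, DU145 on the left and 769-P on the right. Both marks of PFKL lie to the right of the upper dashed line in DU145 and both marks of PDK3 to the left of the lower dashed line in 769-P, whereas SLC16A3 in 769-P and PGD in DU145 have their marks on opposite sides of 0.

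At 3 of the 4 pentose phosphate enzymes siRNA 1 gave the lowest value in both lines. PGD, which makes NADPH from phosphogluconate, had 112 FPKM in the DU145 control, 52.9 with siRNA 1 and 164 with siRNA 2. The order in 769-P was 73.1, 39.8 and 50.6 FPKM. In DU145 it was thus lowest with siRNA 1 and highest with siRNA 2, and in 769-P both siRNA libraries were below the control. RPIA, ribose phosphate isomerase, had 11.4, 6.24 and 10.6 FPKM in DU145 and 14.0, 6.56 and 10.7 in 769-P. With siRNA 1 RPIA and PGD were past 1.5-fold lower in both lines, and with siRNA 2 they were not. TALDO1, transaldolase of the non-oxidative branch, had 153, 102.7 and 171 FPKM in DU145 and 316, 215 and 239.9 in 769-P, the same order of libraries as PGD in DU145. TKT, transketolase, had the narrowest spread of the 4, with 416, 431 and 547 FPKM in DU145 and 346, 421 and 384 in 769-P. The median log2 fold change of the 4 enzymes was -0.67 with siRNA 1 and 0.28 with siRNA 2 in DU145, and -0.71 and -0.38 in 769-P. NFE2L2, which encodes the antioxidant regulator NRF2, was chosen after its values were seen. It had 30.5, 12.98 and 25.4 FPKM in DU145 and 32.4, 19.3 and 22.3 in 769-P, also lowest with siRNA 1. Whether its level is linked to those of the enzymes was not tested.

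**Figure D3:**
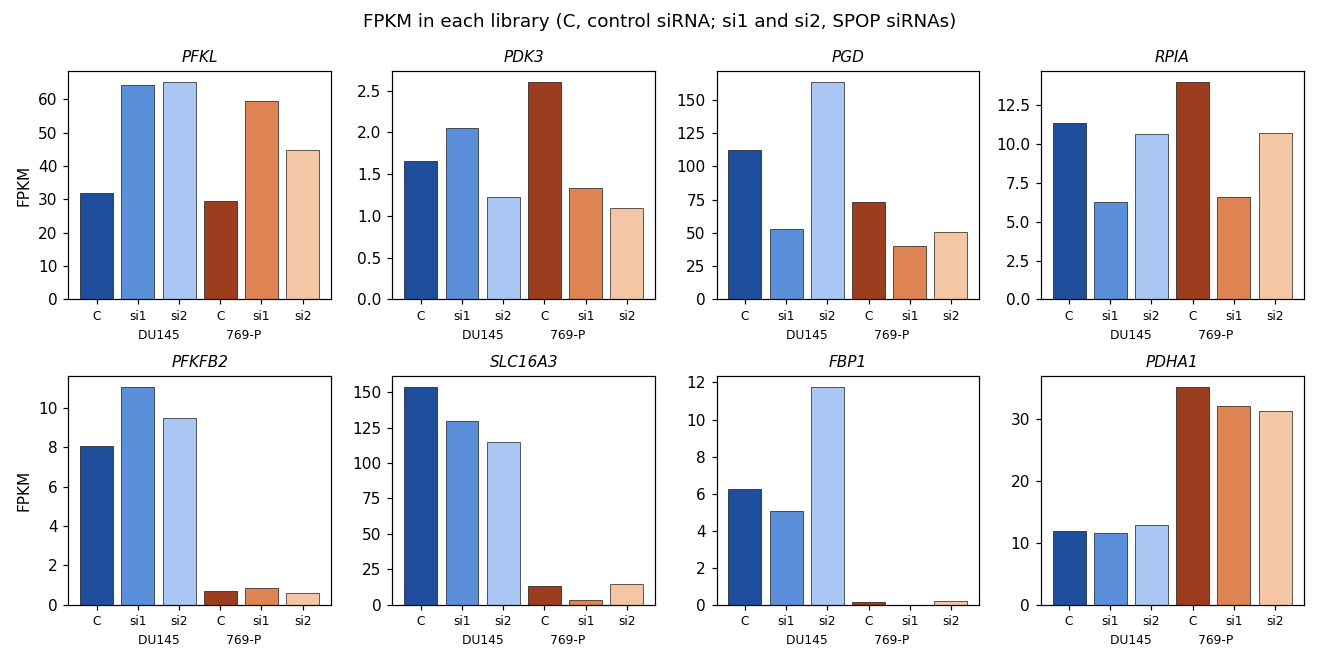
FPKM of 8 genes in the control (C), SPOP siRNA 1 (si1) and SPOP siRNA 2 (si2) libraries of each line, 1 bar per library with no error bar and an axis from 0. PFKL is higher with both siRNAs, PGD and RPIA are lowest with siRNA 1, and PFKFB2, SLC16A3 and FBP1 are high in DU145 and low in 769-P.

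DU145 and 769-P were then compared over the 3 libraries of each line. Of the 33 genes, 15 passed an adjusted p of 0.05 from limma, 7 higher in DU145 and 8 higher in 769-P. That is 45.5%, the same share as among all genes tested (45.5%, with 29.4% higher in DU145 and 16.1% higher in 769-P). The lines did not overlap at 18 of the 33 genes (54.5%), beside 56.3% of all genes. At 5 genes, or 15.2%, they were also at least 2-fold apart, against 26.5% of all genes. With quantile normalization 18 genes passed, 8 higher in DU145 and 10 higher in 769-P, and the split over all genes moved from 3483 higher in DU145 and 1912 higher in 769-P to 2743 and 2923. The PFKFB4 and PDK1 calls were lost there. The count fell to 5 without the filter on low values, to 8 without the 769-P siRNA 2 library, and to 7 without the DU145 control and the 769-P siRNA 2 library together. The calls lost without both libraries were HK1, PFKP, PFKFB4, GAPDH, PGK1, ENO1, LDHB and TALDO1 (adjusted p = 0.0611 to 0.174 from limma). Without the 769-P siRNA 1 library it also fell to 5, and the 10 calls lost had adjusted p = 0.0537 to 0.171 from limma, with PFKFB2, SLC16A3, FBP1, ENO2 and PDHA1 left. Without a DU145 library the calls lost were PFKP, PFKFB4, GAPDH and SLC16A1 for siRNA 1, HK1, ENO1 and SLC16A1 for siRNA 2, and PFKFB4 and SLC16A1 for the control, at adjusted p = 0.0506 to 0.169 from limma. PFKFB2, FBP1, ENO2 and PDHA1 passed under every alternative in which they were tested, and SLC16A3 under all but the fit without the filter.

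SLC16A3, the lactate exporter MCT4 of glycolytic cells, lies on chromosome 17 of GRCh37 from 80175810 to 80219005. It had 154, 129.7 and 115 FPKM in the control, siRNA 1 and siRNA 2 libraries of DU145 and 12.9, 3.34 and 14.6 FPKM in 769-P. The lowest DU145 library was far above the highest 769-P library, and the means differed 12.9-fold (log2 difference 3.76, SE 0.48, adjusted p = 0.00258 from limma). SLC16A1, the more widely expressed transporter MCT1, was the other way round, with 15.5, 14.6 and 12.8 FPKM in DU145 and 35.1, 33.0 and 17.3 in 769-P. Its siRNA 2 value in 769-P lay close to the DU145 range, and the log2 difference of -0.88 (SE 0.27, adjusted p = 0.0425 from limma) no longer passed when any of 5 of the 6 libraries was left out. SLC16A3 thus made up 90.8%, 89.9% and 89.9% of the summed FPKM of the pair in DU145 and 26.8%, 9.18% and 45.8% in 769-P. In 769-P siRNA 1 and siRNA 2 lay on opposite sides of the control for SLC16A3.

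Some transcripts of enzymes that regulate or reverse the phosphofructokinase step also set the lines apart. PFKFB2, an isozyme that makes and degrades fructose 2,6-bisphosphate, the activator of phosphofructokinase, lies on chromosome 1 from 207207711 to 207254369. It had 8.04, 11.1 and 9.47 FPKM in DU145 and 0.707, 0.843 and 0.570 in 769-P, a 13.5-fold difference of means (log2 difference 2.62, SE 0.18, adjusted p = 0.00039 from limma). PFKFB3, the isozyme with the strongest kinase activity, had 30.5, 27.4 and 19.6 FPKM in DU145 and 41.1, 61.3 and 35.9 in 769-P. The lines did not overlap at PFKFB3, but the difference did not pass (log2 difference -0.80, adjusted p = 0.0525 from limma). The PFKFB3 difference passed without the DU145 control, with quantile normalization, with a replicate block and with a mean of at least 5 FPKM. PFKFB4 had 5.37, 6.78 and 4.72 FPKM in DU145 and 3.92, 2.65 and 2.82 in 769-P (log2 difference 0.68, SE 0.19, adjusted p = 0.0362 from limma), a call lost in 7 of 12 alternatives. PFKFB3 was the main form in both lines, with 57.9% to 69.4% of the summed FPKM of the 3 genes in DU145 and 89.9% to 94.6% in 769-P. FBP1, which reverses the phosphofructokinase step in gluconeogenesis, lies on chromosome 9 from 97365415 to 97402531. It had 6.23, 5.07 and 11.8 FPKM in DU145, and in 769-P it had 0.160 in the control, was listed at 0 with siRNA 1 and had 0.210 with siRNA 2. The 769-P libraries were all below the DU145 libraries (log2 difference 2.88, SE 0.32, adjusted p = 0.00158 from limma).

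At the top of the pathway HK1, the housekeeping hexokinase, had 39.9, 39.0 and 49.0 FPKM in DU145 and 29.5, 23.2 and 24.5 in 769-P (log2 difference 0.71, SE 0.16, adjusted p = 0.0165 from limma), a call lost in 5 of 13 alternatives. HK2, the inducible form, was low in both, with 2.64, 3.18 and 4.46 FPKM in DU145 and 5.31, 3.74 and 4.75 in 769-P, and the ranges overlapped. HK1 made up 92.6% ± 1.08 (SD, n = 3) of the pair in DU145 and 84.9% ± 1.20 (SD, n = 3) in 769-P. The picture changed when HK3 and HKDC1 were added. HKDC1, a hexokinase-like enzyme, had 1.60, 0.877 and 2.23 FPKM in DU145 and 33.5, 87.2 and 47.4 in 769-P, so that the share of HK1 among HK1, HK2, HK3 and HKDC1 was 89.6% ± 1.41 in DU145 and 31.8% ± 11.4 in 769-P (SD, n = 3). HKDC1 was the most abundant of these transcripts in each 769-P library. GPI, which isomerises glucose phosphate, had 88.3 to 128 FPKM over both lines, and the lines overlapped.

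From aldolase to pyruvate kinase the lines differed in both directions. ENO1, the ubiquitous enolase, had 1312, 1347 and 1506 FPKM in DU145 and 937, 872 and 724 in 769-P (log2 difference 0.72, SE 0.15, adjusted p = 0.0137 from limma). ENO2, the neuronal enolase, lies on chromosome 12 from 7022909 to 7032861 and had 22.5, 16.6 and 19.0 FPKM in DU145 and 42.5, 41.7 and 36.0 in 769-P. It was 2.07-fold higher in 769-P (log2 difference -1.02, SE 0.15, adjusted p = 0.00435 from limma), although ENO1 remained the main enolase, with 98.6% ± 0.263 of the pair in DU145 and 95.5% ± 0.204 in 769-P (SD, n = 3). PGK1, which makes ATP from bisphosphoglycerate, had 97.8, 110.1 and 124 FPKM in DU145 and 199, 209 and 174 in 769-P, 1.75-fold higher in the latter (adjusted p = 0.00873 from limma). GAPDH was 1.56-fold higher in 769-P (adjusted p = 0.0339) and PFKP, with 292, 289 and 248 FPKM in 769-P, 1.59-fold higher (adjusted p = 0.0148, both from limma). ALDOA, with 1405, 1373 and 1789 FPKM in DU145 and 1165, 1109 and 1028 in 769-P, did not overlap but missed the threshold (adjusted p = 0.0706 from limma), as did TPI1, triose phosphate isomerase, with 459 to 488 FPKM in DU145 and 532 to 680.3 in 769-P (adjusted p = 0.0881 from limma). PGAM1, phosphoglycerate mutase, and PKM overlapped between the lines. The call for GAPDH was lost in 8 of 13 alternatives the calls for ENO1 and PFKP in 5 of 13 and that for PGK1 in 2 of 13.

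Among enzymes of pyruvate handling, transcript levels differed between the lines at some and overlapped at others. PDHA1, the catalytic subunit of pyruvate dehydrogenase, lies on chromosome X from 19362011 to 19379836. It had 11.97, 11.7 and 12.9 FPKM in DU145 and 35.2, 32.2 and 31.3 in 769-P, with little spread among the libraries of a line. It was 2.70-fold higher in 769-P (log2 difference -1.36, SE 0.14, adjusted p = 0.00137 from limma). Its partner subunit PDHB had 25.4, 22.5 and 30.4 FPKM in DU145 and 25.5, 22.4 and 22.8 in 769-P, with no separation. PDK1, a kinase that inhibits the complex, had 1.98, 3.29 and 2.74 FPKM in DU145 and 1.03, 0.758 and 1.09 in 769-P (log2 difference 0.89, SE 0.18, adjusted p = 0.011 from limma), a call lost in 3 of 12 alternatives, and PDK3 overlapped (log2 difference 0.01, SE 0.20). LDHB was 1.65-fold higher in 769-P, with 378, 299 and 385 FPKM in DU145 (adjusted p = 0.0159 from limma), and LDHA overlapped. LDHA made up 45.9%, 38.4% and 44.9% of the pair in DU145 and 33.1%, 34.3% and 34.3% in 769-P. Among the other members TALDO1 was 1.81-fold higher in 769-P (adjusted p = 0.0267 from limma), whereas PGD (log2 difference 0.90, SE 0.43, adjusted p = 0.143 from limma), RPIA, TKT, PGM1 and ALDOC did not pass. PGM1, which links glucose phosphate to glycogen, had 20.2 to 32.9 FPKM in DU145 and 30.6 to 38.2 in 769-P. Without the 769-P control the LDHB and TALDO1 calls were lost, as they were without the 769-P siRNA 1 or siRNA 2 library, and both were lost in 5 of 13 alternatives. Without the DU145 siRNA 1 library PGD passed.

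**Figure D4:**
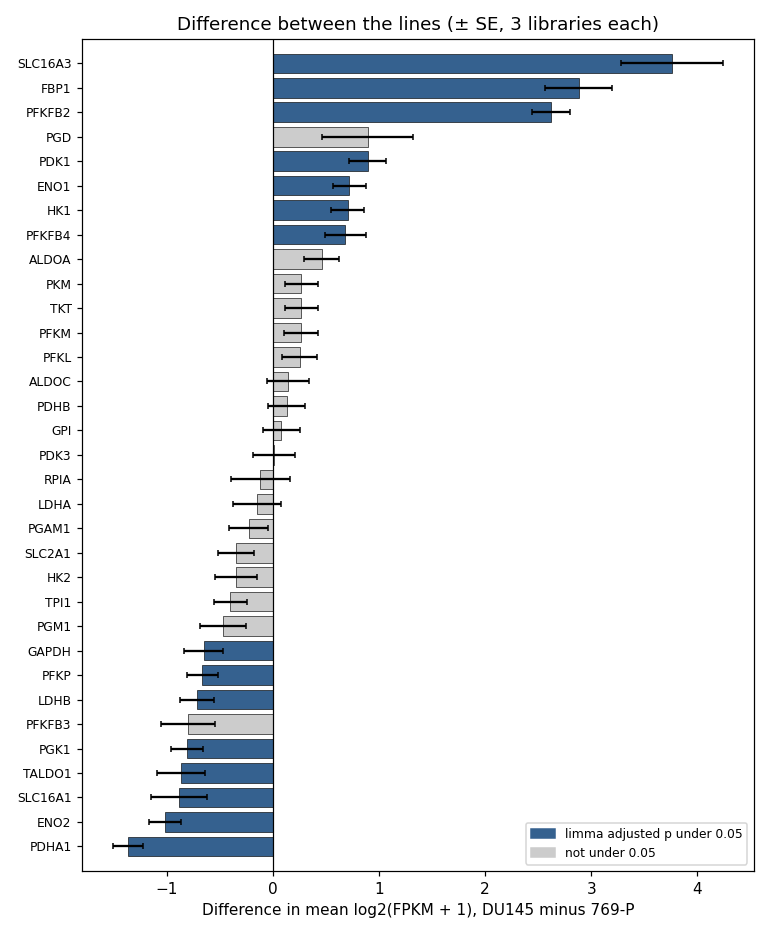
Difference in mean log2(FPKM + 1) between DU145 and 769-P for the 33 genes tested, with bars to the right for genes higher in DU145, error bars of ± 1 SE from limma and blue for an adjusted p under 0.05. SLC16A3, FBP1 and PFKFB2 extend furthest to the right and PDHA1 and ENO2 furthest to the left.

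Isozyme shares were compared between the lines for 9 families, with a two-sided exact permutation test of 3 against 3 libraries, which cannot give a p below 0.1. The share tested did not overlap between the lines in 7 of the 9 families, all at that smallest p of 0.1 (adjusted p = 0.1286 over the 9 tests). For PFKP the gap was very narrow, since the DU145 control and the 769-P siRNA 1 library were both at 76.55% after rounding. The largest difference, taken as DU145 minus 769-P, was 62.9 percentage points for SLC16A3. It was 23.6 points for PDK1, 9.21 for LDHA, 7.76 for HK1 and 3.16 for ENO1, and in the other direction -29.3 points for PFKFB3 and -12.3 for PFKP. SLC2A1 and ALDOA made up over 99% of their pairs in every library and their shares overlapped (exact p = 0.4 for each). PDK2, added as a further kinase, held 62.8% to 81.8% of the summed FPKM of the 4 PDK genes in every library, and the difference for PDK1 was then 5.86 points.

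**Figure D5:**
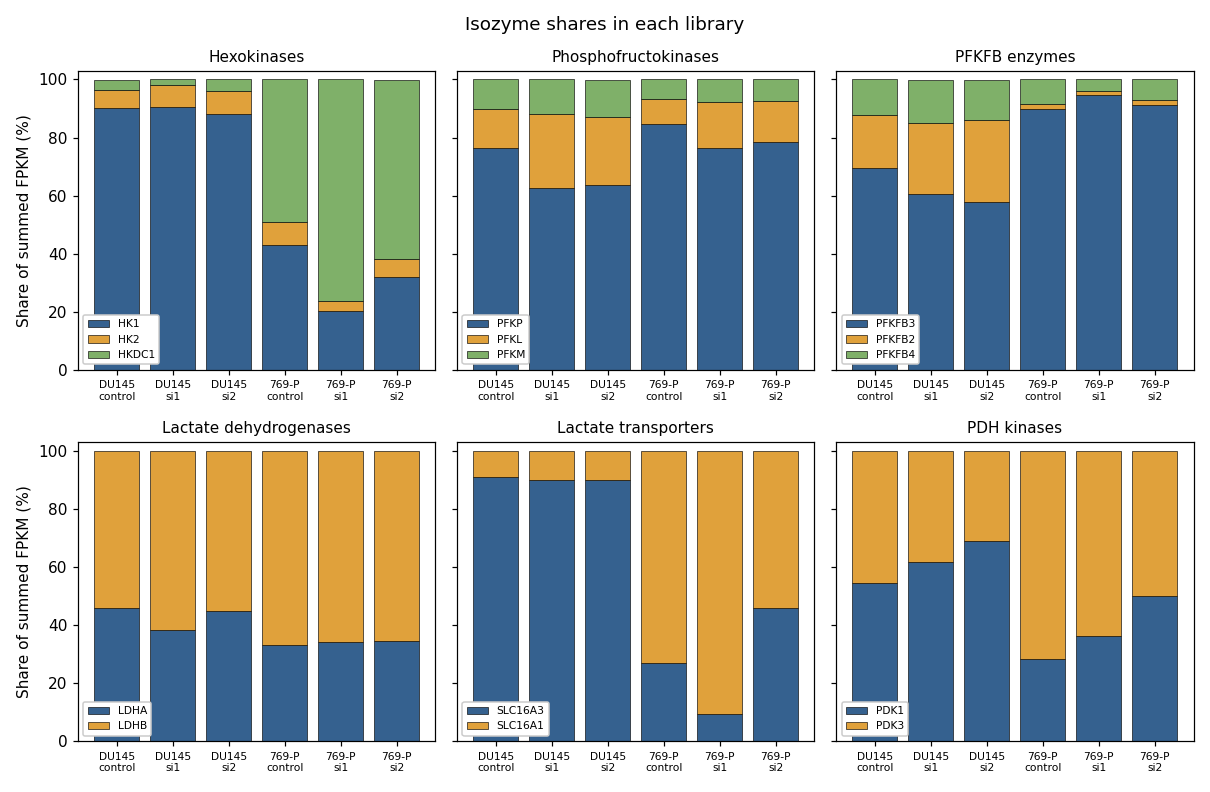
Share of each isozyme in the summed FPKM of its family, in percent, as stacked bars with 1 bar per library (si1 and si2, SPOP siRNAs). HKDC1 takes most of the hexokinase bar with both siRNAs in 769-P, SLC16A3 takes 89.9% to 90.8% of the lactate transporter bar in DU145, and HK3, under 0.2%, is not drawn.

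The other genes of these pathways were taken from a list of 53, of which 31 were tested. With both siRNAs PCK2 and PC rose past 1.5-fold in DU145, 6.45% of the 31, beside 5.91% of all genes in either direction. In 769-P PCK2 and GYS1 rose and PGM2 and RPE fell, 12.9% of the 31, beside 7.32% of all genes. PCK2, the mitochondrial enzyme that makes phosphoenolpyruvate for gluconeogenesis, had 13.2, 22.1 and 23.0 FPKM in DU145 and 3.13, 7.25 and 7.65 in 769-P. PC, pyruvate carboxylase, had 8.99, 14.1 and 16.0 FPKM in DU145 and 1.75, 2.11 and 1.97 in 769-P. GYS1, glycogen synthase, had 14.1, 17.7 and 22.0 FPKM in DU145 and 15.6, 30.0 and 29.9 in 769-P. PCK2 was counted in both lines, and the 2 siRNA libraries lay close to each other for PCK2 in each line and for GYS1 in 769-P. PGM2, a phosphopentomutase, had 11.4, 7.23 and 7.45 FPKM in DU145 and 8.96, 5.34 and 5.16 in 769-P. With the pseudocount of 1, only siRNA 1 was past 1.5-fold in DU145. There the siRNA 2 value of PGM2 was -0.55 on the log2 scale, just short, although its FPKM was 0.655 of the control, past 1.5-fold. RPE, ribulose phosphate epimerase of the pentose phosphate pathway, had 4.70, 3.50 and 3.38 FPKM in DU145 and 11.1, 6.54 and 4.31 in 769-P. None of these changes passed an adjusted p of 0.05 from limma.

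Between the lines 12 of these 31 genes (38.7%) were at least 2-fold apart without overlap, 6 in each direction, beside 26.5% of all genes. Higher in DU145 were PYGL, liver glycogen phosphorylase, with 85.2 to 108 FPKM against 1.04 to 1.75, PCK2, PC, the mutase PGAM2 (11.2 to 13.6 against 1.98 to 5.56 FPKM) and the pyruvate dehydrogenase phosphatases PDP1 and PDP2. Higher in 769-P were HKDC1, the liver and kidney glucose transporter SLC2A2 (3.26 to 4.88 FPKM, listed at 0 in all DU145 libraries), the brain glycogen phosphorylase PYGB (152 to 225 against 55.9 to 94.0 FPKM), PGLS of the oxidative pentose phosphate branch, and both subunits of the mitochondrial pyruvate carrier. The carrier subunit MPC2 had 75.6 to 80.9 FPKM in 769-P and 20.8 to 23.1 in DU145, and MPC1 3.64 to 8.07 and 1.53 to 2.23. MPC1, MPC2 and PDHA1 were thus higher in 769-P, PC and PCK2 were higher in DU145, and PDHB overlapped.

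Of 8 regulators of glucose metabolism, 7 were tested. Transcripts of the hypoxia-inducible factor genes, whose products bind the ACGTG core printed above, were higher in DU145. The protein level and activity of these factors cannot be read from FPKM. HIF1A had 64.4, 68.1 and 56.1 FPKM in DU145 and 3.46, 2.50 and 4.78 in 769-P, and EPAS1, which encodes HIF-2α, had 13.4, 21.4 and 27.5 FPKM in DU145 and 1.20, 0.561 and 0.817 in 769-P. EPAS1 was past 1.5-fold above the control with both siRNAs in DU145, as were 4.72% of all genes, and its fold change did not pass (log2 fold change 0.81, SE 0.28, adjusted p = 0.786 from limma). ARNT, their partner, had 12.04 to 14.0 FPKM in DU145 and 4.10 to 6.30 in 769-P. Of the 18 genes with ACGTG in a window, SLC16A3 and PDK1 were higher in DU145, ENO2, GAPDH, PFKP and PGK1 were higher in 769-P, and 12 did not pass. Of the 13 genes tested whose windows lack ACGTG, 4 were higher in DU145, 3 were higher in 769-P and 6 did not pass. GCGTG was not used for this split, and windows without ACGTG can hold it. Over all genes tested 29.4% were higher in DU145 and 16.1% higher in 769-P. Several of these calls did not hold under the alternatives given above. MYC, a transcription factor that activates many glycolytic genes, had 81.1 to 124 FPKM in 769-P and 40.1 to 46.2 in DU145, and TXNIP, an inhibitor of glucose uptake, had 6.34 to 10.1 and 0.522 to 1.33. No link between these levels and those of the enzymes was tested.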

How the data were processed

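RNA-Seq was carried out on polyadenylated RNA in 6 libraries. The authors trimmed 100-bp paired-end reads, aligned them by TopHat2 to hg19 with at most 2 mismatches, and deposited Cufflinks FPKM values, and FastQC and cutadapt stand in the submitters' processing notes. Versions, annotation and use of strand are not given in the sources used here. The methods state 2 biological replicates per sample and the labels 1 library each, so the siRNA libraries served as replicates. Each control was a group of 1 library and added nothing to the spread. The SEs and p-values from limma thus rest on the spread between siRNA 1 and siRNA 2 within each line, with 2 residual degrees of freedom. FPKM holds no read counts, so the precision of a single value is unknown. The relative depth estimated from low values ran from 0.680 to 1.41 of the 769-P control.

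Repeated symbols were summed from 26006 rows to 24551 genes. Values were analysed as log2(FPKM + 1), which understates changes of low genes, and the 11865 genes averaging 1 FPKM or more were tested. limma 3.58.1 in R 4.3.3 was fitted to 4 groups with a trend and Benjamini-Hochberg adjustment over all genes, after a check on simulated data. That check used 1 common spread for all genes and larger changes than any seen in the list. It does not show whether changes of the size seen here would be found. The DU145 to 769-P contrast weighs the 3 libraries of a line equally. Alternatives were a pseudocount of 0.1, no filter, a minimum mean of 5 FPKM, median-centred fold changes, a 2-fold threshold, quantile normalization, no trend, a replicate block, further isozymes, and leaving out each library. Subtraction of the olfactory receptor mean and leaving out 2 libraries together were added after seeing the data. The members and gene lists were chosen with earlier results of these data known. Values of every library are given for genes past a threshold, leading isozymes and the highest and lowest genes. Gene positions are from GENCODE on GRCh37 and promoters from RefSeq on GRCh38.p14. Results for some listed genes are not reported here.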

Additional observations from a re-analysis of the deposited data

Results flagged for a closer look

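HK2, ENO1 and PKM lay above the control with both siRNAs in DU145 and below it with both siRNAs in 769-P. The mean log2 fold changes of the lines were 0.67 apart for HK2, 0.36 for ENO1 and 0.43 for PKM. HK2, the inducible hexokinase, had 0.20 and 0.59 in DU145 and -0.41 and -0.14 in 769-P for siRNA 1 and siRNA 2. ENO1, the main enolase, had 0.04 and 0.20 in DU145 and -0.10 and -0.37 in 769-P. PKM, pyruvate kinase, had 0.26 and 0.17 in DU145 and -0.06 and -0.38 in 769-P. Such opposite signs occurred at 3 of the 33 genes, or 9.09%, and at 1636 of all 11865 genes, or 13.8%. In limma the difference in response had an adjusted p of 0.999 for each of the 3 genes, so no difference between the lines was shown. With fold changes centred on the median of all genes, ENO1 was at -0.04 with siRNA 1 in DU145 and so no longer had opposite signs, whereas HK2 and PKM kept them.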

How the results depend on the processing

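Knockdown counts rest on few libraries. In DU145 the count of genes past 1.5-fold was 1 with both siRNAs, 4 to 5 when a siRNA library was left out, and 0 at 2-fold. In 769-P it was 1, 2 to 6 without a siRNA library, 0 at 2-fold, 0 with a mean of at least 5 FPKM, and 2 with a pseudocount of 0.1 or with median-centred fold changes, where PFKL joined PDK3. The limma counts for knockdown were 0 under every alternative run. For DU145 against 769-P the limma count of 15 became 5 with no filter, 7 without the 2 libraries with olfactory receptor values, and 5 to 15 when 1 library was left out. The count of 5 genes at least 2-fold apart became 16 at 1.5-fold, 8 without those 2 libraries, and 4 to 6 with 1 library left out. With further isozymes the share differences became 2.62 points for SLC2A1, 57.8 for HK1, 3.59 for ENO1 and 5.86 for PDK1. The cause was not tested beyond what each alternative changes.

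The siRNA numbers shared by the lines do not pair samples by source. The correlation across 11865 genes of siRNA 2 minus siRNA 1 between the lines was 0.27. With the replicate block 16 genes passed for DU145 against 769-P, with PFKFB3 (adjusted p = 0.00646) and PGD (adjusted p = 0.0379) gained and GAPDH lost (adjusted p = 0.123, all from limma), and 0 for knockdown in either line or for its difference. No called result reversed its direction under an alternative run. Fold changes that were not called could turn, as with siRNA 2 alone for PGD in DU145 (0.54, beside a mean of -0.27) and SLC16A3 in 769-P (0.17, beside -0.75). Low genes such as PDK3, ALDOC and FBP1 are the least certain, since no counts were used here.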
